A study of Homo sapiens with 6 samples.

Results

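Both arms of miR-9 (hsa-miR-9-5p and hsa-miR-9-3p) and both arms of miR-124 (hsa-miR-124-3p and hsa-miR-124-5p) were followed in small RNA libraries of MIO-M1 cells and of the extracellular vesicles (EV) that these cells release. The 4 mature miRNAs were found by an exact match of their names among the 2576 mature miRNAs of the deposited count tables, and all 4 were listed. MIO-M1 is an established human cell line derived from Müller glia, which span the retina and support its neurons. The 3 whole cell libraries came from passages 22, 24 and 26 and the 3 EV libraries from passages 23, 25 and 27, numbered 1 to 3 within each group by rising passage. Every sample is labelled WT, and none received a drug or gene treatment. All cultures were grown in DMEM with fetal calf serum, and the labels state that medium was conditioned without serum before EV were collected by rounds of centrifugation. The methods name vesicle-depleted medium for this step. The EV pellet was cleaned over a sucrose cushion, filtered and treated with RNase A. RNA was extracted with 1 kit from cells and with another from EV, so the kit cannot be told apart from the source of the RNA. The passages of the groups alternate. All samples are passages of 1 line, and p-values therefore measure only the spread between these samples, which may be technical.

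miR-9 is a deeply conserved miRNA of neural progenitors, neurons and retinal glia. It is unusual in that both arms of its hairpin are known to act. The 5p arm is known to target REST, a repressor of neuronal genes, and the 3p arm (once named miR-9*) to target CoREST, a partner of REST. miR-124 is the most typical miRNA of mature neurons, where it lowers the splicing factor PTBP1, and miR-9 arms and miR-124 have been used together to turn other cells, Müller glia among them, towards neurons. When a hairpin is cut, the arm that is loaded into Argonaute persists and the other is mostly degraded, so the ratio of the 3p to the 5p arm is a property of a miRNA that does not depend on library depth.

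The mature miR-9 arms are shown because the results turn on how differently they behaved. They are from RefSeq on GRCh38.p14, in lower case with the seed (bases 2 to 8, which pair with targets) in capitals.
miR-9-5p: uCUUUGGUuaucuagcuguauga
miR-9-3p: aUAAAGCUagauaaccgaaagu

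The 5p arm is 23 bases long and the 3p arm 22. The seeds differ, and 0 other mature names of the 2370 in the RefSeq table had either seed. Both arms are the same at 3 hairpins. MIR9-1 lies on the minus strand of chromosome 1, with the 5p arm at chr1:156420392-156420414 and the 3p arm at chr1:156420354-156420375. MIR9-2 lies on the minus strand of chromosome 5, with the 5p arm at chr5:88666902-88666924 and the 3p arm at chr5:88666866-88666887. MIR9-3 lies on the plus strand of chromosome 15, with the 5p arm at chr15:89368032-89368054 and the 3p arm at chr15:89368071-89368092. In the GENCODE 29 annotation the MIR9-1 hairpin is intronic in all 15 transcripts of C1orf61 that span it. The MIR9-2 hairpin overlaps an exon in 5 of the 10 spanning transcripts of the long non-coding RNA LINC00461, and the MIR9-3 hairpin is intronic in all 3 spanning transcripts of MIR9-3HG, another long non-coding RNA. The hairpins differ in the loop between the arms, which is shown because it differs between the loci and is not part of either mature miRNA.
MIR9-1 loop: gugguguggagucuuc
MIR9-2 loop: guguauuggucuuc
MIR9-3 loop: gugccacagagccguc

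The loops are 16, 14 and 16 bases long. As the tables count mature arms, no count can be given to 1 of the 3 loci. The tables place each miR-124 arm at 2 positions on chromosome 8 and 1 on chromosome 20.

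The total count was between 396025 and 3990900 in whole cells and between 1225541 and 3134561 in EV. These are raw counts of reads that the authors assigned to each mature miRNA, and levels are given in CPM, counts per 1000000 of a library's total. Where a miRNA had a count of 0, the upper limit was taken as 3 counts. Intervals and limits cover counting error only, since the sources used here name no step that removed copies of the same starting molecule. A filter kept miRNAs at 5 CPM or more in 3 libraries or more, and all 7 of a Müller glial list passed it. Their summed level was 198020 to 210209 CPM in whole cells and 120878 to 167898 CPM in EV. This list shares miR-9-5p with the miRNAs under study.

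hsa-miR-9-5p was abundant in cells and EV, and the groups overlapped. Its level was 12517, 8161 and 7471 CPM in whole cell replicates 1, 2 and 3, where it ranked 19, 25 and 28 by count. In EV replicates 1, 2 and 3 it was 22652, 9271 and 22542 CPM, and it ranked 9, 22 and 10. EV replicates 1 and 3 were above every whole cell library, while EV replicate 2 was below whole cell replicate 1. The mean was 9383 ± 2736 CPM in whole cells and 18155 ± 7694 CPM in EV (SD, n = 3 each), a ratio of 1.93. The log2 fold change from edgeR's quasi-likelihood test with TMM scaling was 1.06 ± 0.47 (SE), with a Benjamini-Hochberg adjusted p of 0.154 over the 430 miRNAs past the filter. The exact permutation test of the mean log2(CPM + 4) gave a difference of 0.88 and a two-sided p of 0.2, where 3 libraries against 3 cannot give less than 0.1. The difference did not pass either test. It turned on EV replicate 2, without which the log2 fold change was 1.28 ± 0.31 (SE) with an edgeR adjusted p of 0.0310, still short of the limits for a call used here. In such bulk libraries, fewer cells or vesicles that hold a miRNA and less of it in each cannot be told apart.

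hsa-miR-9-3p was scarce in cells and much higher in EV. Whole cell replicates 1, 2 and 3 held 6, 68 and 17 reads of it, which is 15.2, 17.0 and 13.6 CPM and a rank between 298 and 319. In EV replicates 1, 2 and 3 the count was 508, 2647 and 3062 (415, 1298 and 977 CPM), and the highest rank was 69, in replicate 3. The groups did not overlap, and the lowest EV library was 24.3 times the highest whole cell library. The whole cell libraries lay within a factor of 1.26 of each other and the EV libraries within 3.13. The mean was 15.3 ± 1.73 CPM in whole cells and 897 ± 447 CPM in EV (SD, n = 3 each), a ratio of 58.8.

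The log2 fold change of miR-9-3p was 5.80 ± 0.58 (SE) with an edgeR adjusted p of 0.00209. This is a fold of 55.7, or 37.4 to 83.1 at 1 SE on either side. Calls needed an adjusted p under 0.01 together with a log2 fold change of 2.5 or more in size. By this rule 4.42% of the 430 miRNAs were called higher in EV and 1.40% lower. Of the 4 miRNAs only the miR-9 arms passed the filter and were tested, and of these miR-9-3p was called. The groups of miR-9-3p did not overlap, with EV higher, as was true of 20.5% of all 430 miRNAs. Groups without overlap in either direction made up 48.4%. By p-value it stood at place 2 and by log2 fold change at place 11 of the 430. Without whole cell replicate 3 its log2 fold change was 5.68 with an adjusted p of 0.0108, and without EV replicate 2 it was 5.47 with an adjusted p of 0.0160. Both miss the limit of 0.01, and in both settings edgeR called 0 of the 430 miRNAs, while 121 and 169 had an unadjusted p below 0.05. The exact permutation test gave a difference of 5.40 on the log2(CPM + 4) scale and a p of 0.1, the smallest it can give.

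hsa-miR-124-3p and hsa-miR-124-5p had a count of 0 in all 6 libraries. The upper limit was 7.58, 0.752 and 2.40 CPM in whole cell replicates 1, 2 and 3 and 2.45, 1.47 and 0.957 CPM in EV replicates 1, 2 and 3, for each arm. Over the 12037806 counts of all 6 libraries, 0 counts allow up to 0.249 CPM. Over the whole cell libraries alone the limit was 0.532 CPM and over the EV libraries 0.469 CPM. Neither arm was counted in cells or EV, so no comparison between the groups could be made. The file headers show no option to count reads with several positions, and the tables do not tell whether such reads of miR-124 were left out, in which case these limits would not hold. The miR-9 arms, which the tables also place at 3 positions each, were counted in every library.

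**Figure D1:**
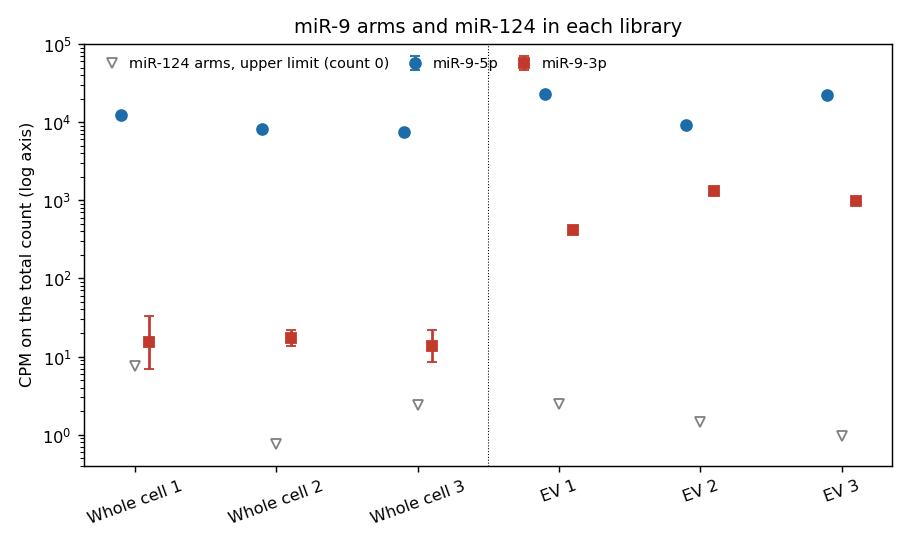
Level of the miR-9 arms in each of the 6 libraries, in CPM on a log axis, with 95% Wilson intervals of the counts, and the upper limit that a count of 0 allows for each miR-124 arm (open triangles). The miR-9-3p squares rise from between 13.6 and 17.0 CPM in whole cells to between 415 and 1298 CPM in EV, while the miR-9-5p circles of the groups overlap.

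Within each library the 5p arm was the major arm, by a margin that differed between cells and EV. There were 826, 479 and 550 reads of miR-9-5p for each read of miR-9-3p in whole cell replicates 1, 2 and 3. In EV replicates 1, 2 and 3 there were 54.6, 7.14 and 23.1. As a share of miR-9 reads, the 3p arm made up 0.121% (95% Wilson interval 0.0554 to 0.264, 6 of 4963 reads), 0.208% (0.164 to 0.264, 68 of 32638) and 0.181% (0.113 to 0.290, 17 of 9372) in whole cell replicates 1, 2 and 3. The 3 intervals overlap one another.

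In EV the 3p share was 1.80% (1.65 to 1.96, 508 of 28269 reads), 12.3% (11.9 to 12.7, 2647 of 21547) and 4.15% (4.01 to 4.30, 3062 of 73720) in replicates 1, 2 and 3. No EV interval overlaps another or any whole cell interval, so the EV libraries differed from each other beyond counting error. The highest 3p share in EV was 6.84 times the lowest. EV replicate 2 had the highest 3p share and the highest level of miR-9-3p together with the lowest EV level of miR-9-5p. The mean share was 0.170% ± 0.0448 in whole cells and 6.08% ± 5.50 in EV (SD, n = 3 each).

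**Figure D2:**
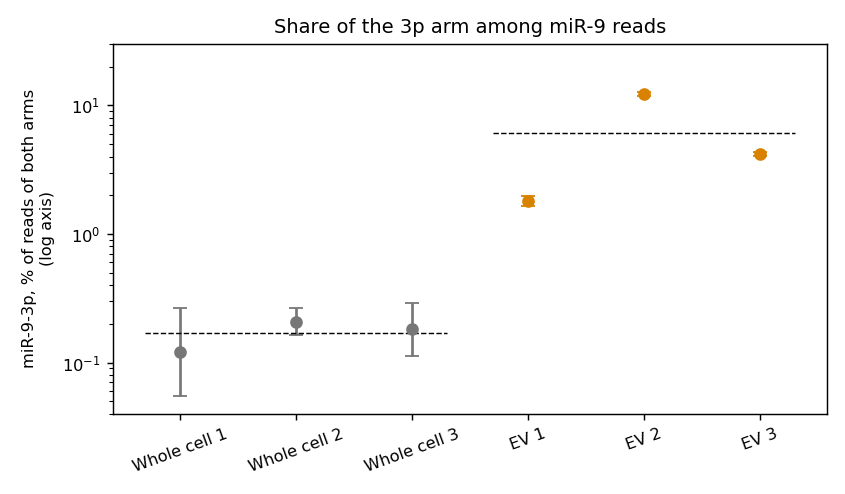
miR-9-3p as a percentage of the reads of both miR-9 arms in each library, on a log axis, with 95% Wilson intervals, and the mean of each group as a dashed line. The whole cell libraries lie between 0.121% and 0.208% and the EV libraries between 1.80% and 12.3%.

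With 0.5 added to each count, whole cell replicates 1, 2 and 3 had log2 3p/5p ratios of -9.57, -8.89 and -9.06. The ratios were -5.77, -2.84 and -4.53 in EV replicates 1, 2 and 3. The lowest EV library was thus above the highest whole cell library. The means were -9.18 ± 0.35 and -4.38 ± 1.47 (SD, n = 3 each), a difference of 4.80 with a two-sided exact permutation p of 0.1, the smallest possible. The arm-by-group interaction in edgeR, with the library as a block, gave a log2 shift of 4.82 ± 1.01 (SE), which is 28.3-fold, and an adjusted p of 0.0240 over 195 hairpin names that have both a 5p and a 3p row. At the adjusted p limit of 0.05 used for this test, 9.74% of the hairpin names were called with the 3p arm up in EV and 8.72% with it down. Leaving out any 1 whole cell library ended the call for miR-9, with shifts of 4.61, 4.99 and 4.89 and adjusted p of 0.0919, 0.169 and 0.0956 without replicates 1, 2 and 3. In these settings edgeR called 0 of the 195 hairpin names, while 58, 42 and 50 had an unadjusted p below 0.05.

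The arm ratio of many other hairpins differed between cells and EV, in both directions. The median shift over the 195 hairpin names was 0.02, and the arm ratios of the groups did not overlap for 22.1% with EV higher and for 21.5% with EV lower. The shift of miR-9 stood at place 33, and of the 32 larger ones 25 had an arm at 3 counts or fewer in every library of a group. Such an arm was found in 92 of the 195 hairpin names, and among the rest 7 had a larger shift than miR-9, 3 of them called. Those 3 were miR-299 with a shift of 5.64 ± 1.00 (SE), miR-130b with 6.56 ± 1.5 and miR-377 with 9.25 ± 2.40. These 3 were singled out after their values were seen. In EV replicates 1, 2 and 3 the 5p counts were 0, 42 and 37 for miR-130b and 0, 46 and 0 for miR-377. The fitted shifts of miR-130b and miR-377 thus rest partly on libraries at 0. For miR-299 the 5p counts in EV were 62, 260 and 163. The 3p arm of miR-299 was 4.44% of its pooled reads in whole cells and 72.8% in EV.

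The match by name pairs 1 5p with 1 3p row and leaves out further arms that are numbered by locus. The tables hold such an arm for 4 of the 195 hairpin names, miR-181a, let-7a, miR-376a and miR-550a, and none for miR-9. For miR-181a it is the more abundant 3p arm: miR-181a-2-3p had 747, 7764 and 2990 counts in whole cells and 1476, 1671 and 1047 in EV, against 41, 251 and 72 and then 678, 179 and 650 for miR-181a-3p. The called shift of miR-181a, 4.43 ± 0.89 (SE, edgeR adjusted p = 0.0240), is therefore that of miR-181a-3p over the 5p arm and not of the whole miRNA. With these 4 names left out, 11 hairpin names, miR-9 among them, had a 3p arm below 1% of pooled reads in whole cells and no arm at 3 counts or fewer throughout a group. Their median shift was -0.65, and miR-9 was the 1 called. This set was formed after the values were seen, and its limit of 1% narrowly leaves out miR-382. The 3p arm of miR-382 was 1.01% of pooled reads in whole cells and 9.27% in EV. Its shift of 3.78 ± 0.81 (SE, edgeR adjusted p = 0.0255) was called too, so such a rise was not particular to miR-9.

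The 3 called hairpin names with the largest shift in each direction all had 1 arm at 0 in every EV library, so their fitted shifts are no measure of size and are not printed. Towards the 3p arm these were miR-29c, miR-590 and miR-582. The 5p counts of miR-29c were 24, 152 and 35 in whole cells and 0, 0 and 0 in EV, against 3p counts of 27, 99 and 31 in whole cells and 888, 1790 and 1205 in EV. The 3p counts of miR-590 went from 2, 8 and 0 in whole cells to 476, 558 and 571 in EV, and those of miR-582 from 5, 33 and 7 to 294, 327 and 366. Towards the 5p arm they were miR-335, miR-424 and miR-5001. The 5p counts of miR-335 were 0, 2 and 0 in whole cells and 105, 1401 and 1357 in EV, while its 3p counts were 8, 13 and 3 in whole cells and 0 in each EV library. The 3p counts of miR-424 were 14, 424 and 111 in whole cells and those of miR-5001 were 9, 40 and 10, and both were at 0 in EV. The 5p counts of miR-5001 were 0, 3 and 0 in whole cells and 0, 0 and 87 in EV, so its shift rests on EV replicate 3. Unlike these hairpin names, miR-9 kept both arms above 3 counts in every library.

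**Figure D3:**
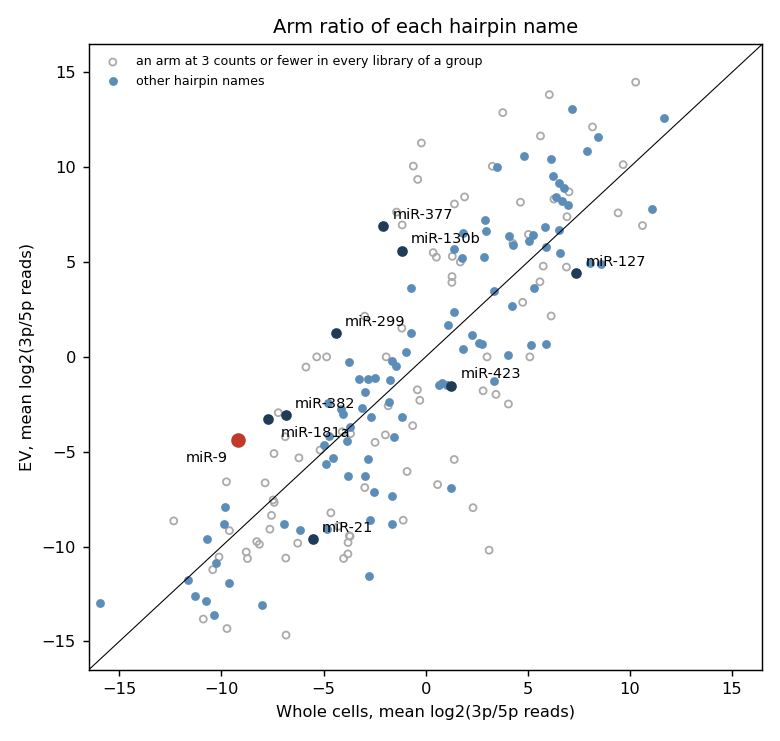
Mean log2(3p/5p reads) in EV against whole cells for the 195 hairpin names, with 0.5 added to each count and the line of equal ratios. miR-9 (red, -9.18 in whole cells and -4.38 in EV) lies above the line with miR-181a (its miR-181a-3p arm alone), miR-382, miR-299, miR-130b and miR-377, while miR-21, miR-127 and miR-423 lie below it; these labelled names are the called ones in which no arm stayed at 3 counts or fewer throughout a group.

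The other neural miRNAs were taken from a list of 16 that includes both miR-9 arms and miR-124-3p. Of the 13 others, 8 passed the filter. By edgeR at the limits above 0 of these were called, while miR-137 and miR-129-5p lay just outside. Both were called with DESeq2 (adjusted p = 4.57e-08 and 2.03e-05), a setting that called 72 of all 430 miRNAs. Both were also called by edgeR with no filter (0.000731 and 0.00300), which called 45 of 1188. miR-137 was also called with a filter of 50 CPM (0.00495), after thinning (0.00938) and without whole cell replicate 1 (0.00961). These settings called 34 of 246, 29 of 430 and 16 of 430 miRNAs. At an adjusted p below 0.05 with no fold limit, 1 of the 8 was higher in EV and 1 lower, close to the 14.7% of all 430 miRNAs that were higher and the 14.0% that were lower. The median log2 fold change was -0.19 for the 8 and 0.40 for all 10 that passed, beside -0.23 for all 430 miRNAs. With miR-129-5p set at its bound, both list medians had the same values.

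These were miR-137 and miR-129-5p. miR-137, which restrains chromatin regulators and the growth of neural progenitors, had counts of 4, 5 and 1 in whole cells and 185, 518 and 730 in EV. Its log2 fold change was 6.11 ± 1.15 (SE) with an edgeR adjusted p of 0.0107. miR-129-5p, a brain-enriched miRNA, was at 27.8, 50.4 and 35.9 CPM in whole cells and had 0 counts in each EV library. With a floor of 3 counts in each library, its EV level was at least 23.4-fold lower than in whole cells (edgeR adjusted p = 0.0121). Like miR-9-3p, miR-137 was low in every whole cell library and higher in every EV library, and for miR-129-5p the order was the reverse. However, miR-129-5p passed the filter through whole cell libraries alone, and miR-137 needed its EV libraries to pass. The filter thus favoured these directions.

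The remaining 6 neural miRNAs past the filter did not pass edgeR's test at an adjusted p of 0.05. miR-128-3p, a brain-enriched miRNA of neuronal excitability, was at 1520, 1433 and 1264 CPM in whole cells and 1801, 1870 and 1747 CPM in EV, and its edgeR log2 fold change was 0.37, with an adjusted p of 0.408. Its groups did not overlap, with EV higher as for 20.5% of all 430 miRNAs. The groups of miR-598-3p did not overlap either, with EV lower as for 27.9% of all 430 miRNAs, at 240, 216 and 220 CPM in whole cells and 152, 104 and 90.3 CPM in EV. Its edgeR log2 fold change was -0.94, with an adjusted p of 0.274. The groups of the other 4 overlapped. The log2 fold change was 0.68 for miR-218-5p, a motor neuron miRNA, with an edgeR adjusted p of 0.317, and 0.42 for miR-7-5p with 0.595. It was -0.75 for miR-132-3p, which neuronal activity induces through CREB, with 0.337, and -1.68 for miR-138-5p, which limits the size of dendritic spines, with 0.137.

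The 5 others that did not pass the filter were low or at 0. miR-219a-5p and miR-338-3p, which promote the maturation of oligodendrocytes, and miR-383-5p had 0 counts in all libraries, as miR-124 did. miR-153-3p had 0, 2 and 0 counts in whole cells and 23, 61 and 0 in EV. miR-212-3p had 3, 16 and 7 counts in whole cells and 0 in each EV library. Besides miR-9, 2 hairpins of the list entered the arm test, miR-132 and miR-212, and neither was called (edgeR adjusted p = 0.320 and 0.102). Both were poorly counted in EV. The shift of miR-132 was 5.12 ± 3.17 (SE), with 5p counts of 72, 0 and 0 in EV. For miR-212 the 5p counts in EV were 18, 0 and 0 and the 3p arm was at 0.

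**Figure D4:**
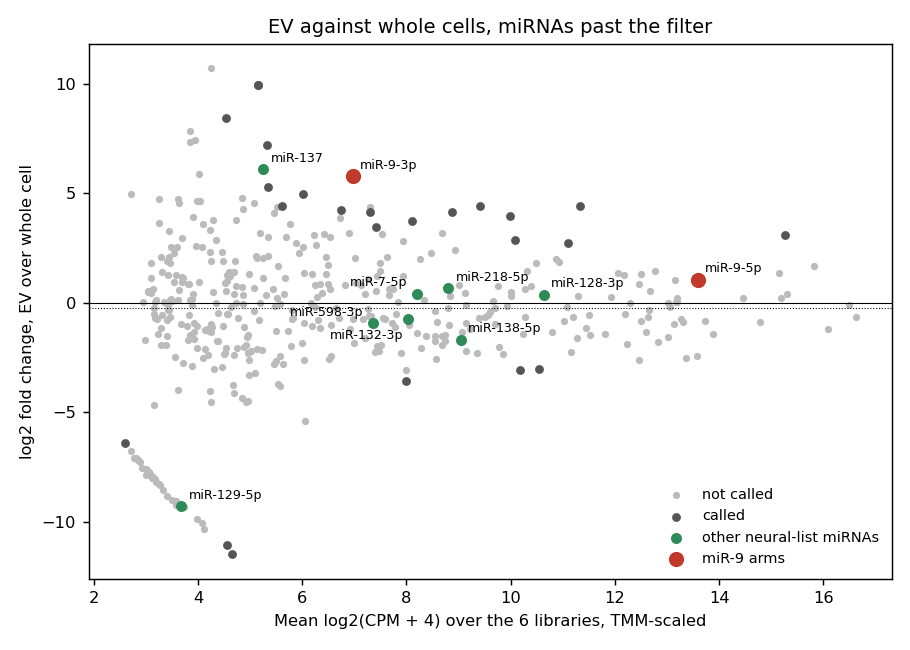
edgeR log2 fold change of EV over whole cell against the mean level over all 6 libraries, for the 430 miRNAs past the filter, with the median of -0.23 as a dotted line. miR-9-3p (5.80) lies high among low to middle levels and miR-9-5p (1.06) closer to the median among the abundant miRNAs, while the other neural miRNAs lie on both sides; the band at the lower left holds miRNAs at 0 in EV, whose fitted values depend on the prior count.

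miRNAs of other sources were read beside these results, as whole lists. Of 7 blood cell and serum miRNAs, 4 passed the filter and 1 was called higher in EV (4.42% of all 430). At an adjusted p below 0.05, 3 of the 4 were higher (14.7% of all 430). Their summed level was 172 to 1173 CPM in whole cells and 1718 to 2380 CPM in EV. The sum was higher in every EV library, but most of it in EV was miR-486-5p. miR-451a, the miRNA of red cells, had 0 counts in all whole cell libraries and 160, 69 and 424 in EV, at least 27.9-fold higher by its floor. miR-142-3p, of blood cells, had 0, 0 and 1 counts in whole cells and 331, 878 and 680 in EV (edgeR adjusted p = 0.00371). It was the called one, and it missed the limit of 0.01 in 4 of the 6 settings with a library left out, without whole cell replicate 1 or 3 or EV replicate 1 or 2, at adjusted p of 0.0108 to 0.0160. miR-122-5p, the liver miRNA that circulates in serum, had 3, 33 and 14 counts in whole cells and 245, 186 and 529 in EV, or 4.10 ± 0.89 (SE) on the log2 scale with an edgeR adjusted p of 0.0124. miR-486-5p, of red cells, was at 164, 875 and 1161 CPM in whole cells and 1217, 1711 and 1197 CPM in EV. Its edgeR log2 fold change was 0.78, with an adjusted p of 0.487. The 3 others were at 0 in EV replicate 3. miR-142-5p had 0 counts in each whole cell library and 55, 127 and 0 in EV, miR-144-3p had 0 in each whole cell library and 0, 18 and 0 in EV, and miR-223-3p had 0, 3 and 0 in whole cells and 31, 85 and 0 in EV. The median log2 fold change of the 4 was 7.02, and 4.45 with the miRNAs at or under the floor set at their bound. However, miR-451a and miR-142-3p reached 5 CPM in EV libraries only, so the filter fixed their direction in advance. The medians and the shares of the 4 that were higher rest partly on this and carry no test. The part of this signal in the miR-9-3p result was not tested.

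Of 6 retinal neuron miRNAs, 5 passed the filter, with a summed level of 464 to 732 CPM in whole cells and 1381 to 1662 CPM in EV. The defining member, miR-124-3p, was at 0 throughout. By edgeR's test 0 of the 5 were called, and at an adjusted p below 0.05, 2 were higher in EV and 1 lower, against 14.7% and 14.0% of all 430. Higher were miR-182-5p and miR-183-5p, which photoreceptors hold at high levels, with log2 fold changes of 2.26 and 2.07 (edgeR adjusted p = 0.00872 and 0.0171). Lower was miR-129-5p, given above, and miR-7-5p had the value 0.42 given there too. miR-96-5p, of the same cluster, had 10, 29 and 8 counts in whole cells and 0, 91 and 0 in EV. Of 2 miRNAs of the retinal pigment epithelium, miR-211-5p had at most 5 counts in a library, and miR-204-5p, also on the Müller glial list, had a log2 fold change of -1.90 (edgeR adjusted p = 0.00872), below the fold limit of a call.

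**Figure D5:**
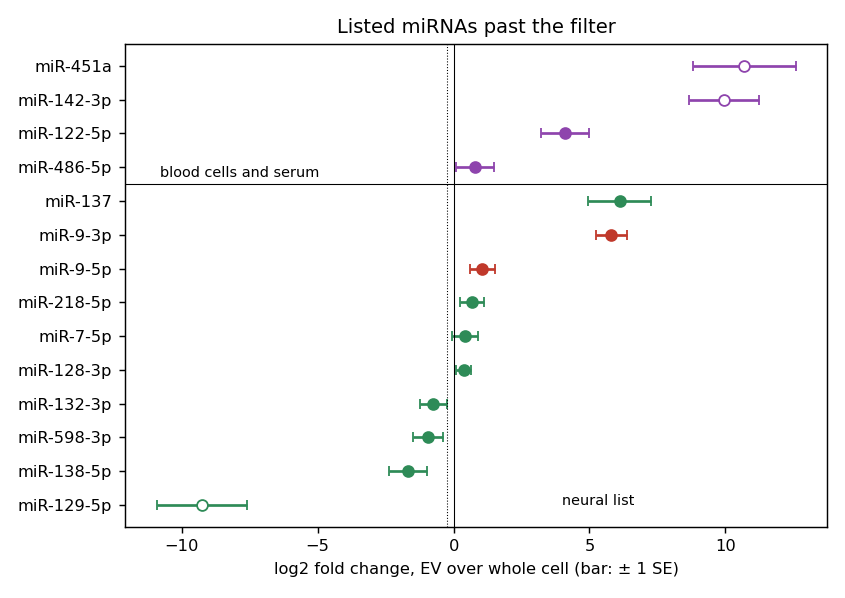
edgeR log2 fold change of EV over whole cell, with bars of 1 SE on either side, for the neural list (below the line, miR-9 arms in red) and the blood cell and serum list (above it), with the median of all 430 miRNAs dotted. miR-9-3p (5.80) and miR-137 (6.11) lie far right of the other neural miRNAs; open circles mark miRNAs at or under 3 counts throughout a group, whose fitted values depend on the prior count.

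The miRNAs whose level followed each arm most closely were not the same for the arms. Pearson's r of TMM-scaled log2(CPM + 4) over the 6 libraries was highest with miR-9-5p for miR-200c-3p (0.972), miR-143-5p (0.939), miR-181a-3p (0.933), let-7f-5p (0.882) and let-7i-5p (0.879). With miR-9-3p it was highest for miR-450b-5p (0.996), miR-1 (0.994), miR-335-5p (0.994), miR-10b-5p (0.992) and miR-660-5p (0.988). Between the arms themselves r was 0.542. The 6 points share 2 groups, so these values describe the pattern and carry no test. Some of these miRNAs were low. miR-143-5p was at 10.1, 3.76 and 1.60 CPM in whole cells and at 17.1, 0 and 28.4 CPM in EV. miR-335-5p was at 0, 0.501 and 0 CPM in whole cells. Among the abundant miRNAs, let-7f-5p was at 34033, 22318 and 16120 CPM in whole cells and at 66174, 45477 and 63424 CPM in EV. miR-10b-5p was at 1076, 815 and 734 CPM in whole cells and at 3784, 6354 and 7034 CPM in EV.

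Base composition moved with the difference between EV and cells. G and C made up 34.8% of miR-9-5p and 31.8% of miR-9-3p. Of the 430 miRNAs, 390 had a RefSeq sequence. Across these 390 miRNAs, which are not independent replicates, r between the log2 fold change and the G and C content was -0.345. The 19 miRNAs with a content at or under that of miR-9-3p had a median log2 fold change of 2.05, and 3 of them had a larger value than miR-9-3p. The 32 at or under the content of miR-9-5p had a median of 2.17, above the 1.06 of miR-9-5p itself. The part of base composition in the result for either arm was not tested.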

How the data were processed

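Per the labels and methods, small RNA libraries (QIAseq kit) were sequenced, trimmed and aligned to miRBase. The authors deposited, per library, a raw read count for every mature miRNA. Per the file headers, counting used featureCounts 1.5.0-p1 (strand option 1) with annotation of miRBase release 20 after Bowtie 1, with no option for reads with several positions, while the methods name Bowtie2 and another miRBase release. No genome build is named.

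Members were matched by name. miRNAs at 5 CPM or more in at least 3 of the 6 libraries were tested with edgeR 4.0.16 (quasi-likelihood, TMM, Benjamini-Hochberg) in R 4.3.3. Arm ratios were tested as an arm-by-group interaction over hairpin names with at least 10 counts of both arms together in at least 3 libraries. DESeq2 1.42.0, limma 3.58.1, other scalings, filters, thinning (seed 1), pseudocounts and leaving out each library were alternatives. Scripts were tested on simulated data, which had less spread between libraries than these data (common dispersion 0.918). No library was a copy of another (smallest chi-square per degree of freedom 41.9).

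Named miRNAs were the 4 members, the listed neural and blood miRNAs past the filter, miRNAs sharing a seed, the 5 most alike in level, and the 3 called hairpin names with the largest arm shift in each direction. Other list members below the filter, the marker miRNAs and the other hairpin names were named after their values were seen. The members and lists were chosen with earlier results of these data known. Mature miR-124 sequences were not used here.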

Additional observations from a re-analysis of the deposited data

How the results depend on the processing

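No paired analysis was possible because the labels give each library a passage of its own and no number shared between the groups. The log2 fold change of miR-9-3p was positive in all 13 alternatives that change the fit, and so was that of miR-9-5p. Leaving out 1 library gave 5.47 to 6.01 for miR-9-3p, which missed the adjusted p limit of 0.01 in 2 of 6 settings, and 0.68 to 1.28 for miR-9-5p, under the fold limit of 2.5 throughout, with adjusted p of 0.0310 to 0.396. DESeq2 gave 5.61 for miR-9-3p (adjusted p = 1.19e-20) and 0.81 for miR-9-5p (0.243). The arm shift of miR-9 was 4.06 to 5.53 with 1 library left out. It was called with limma, with 10 counts of each arm required and with libraries thinned to 396025 counts.

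The number of called miRNAs changed widely between settings. It was 25 (19 higher and 6 lower), 72 with DESeq2 (42 and 30), 38 with upper-quartile factors (20 and 18), 45 with no filter (23 and 22), 93 at an adjusted p below 0.05 with the same fold limit, 123 with no fold limit, and 0 to 31 with 1 library left out. RLE factors gave 24 (14 and 10) and library totals 37 (21 and 16), so the share called higher fell from 76.0% to 58.3% and 56.8%, and the median log2 fold change of all 430 moved from -0.23 to -0.41 with RLE. The number of called hairpin names was 36, 12 with 10 counts of each arm, 10 after thinning and 0 to 52 with 1 library left out. Of the other neural miRNAs, miR-7-5p, at 0.42 with all libraries, ranged from -0.085 without EV replicate 3 (edgeR adjusted p = 0.905) to 0.49 without EV replicate 1. The cause of these changes was not tested.

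The depth of whole cell replicate 1, 396025 counts, limits miR-9-3p there to 6 counts and miR-124 to a bound of 7.58 CPM.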
